A study of Homo sapiens with 26 samples.

Results

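The lysyl oxidase genes LOX, LOXL1, LOXL2, LOXL3 and LOXL4 were picked out by symbol and followed across all lines of the series. All 5 members were present among the 33562 gene rows of the table. Expression is given in RPKM, reads scaled by transcript length and library total, so levels of different members are compared per length. RNA came from 26 libraries of 9 lines of MDA-MB-231Luc, a luciferase-marked form of the MDA-MB-231 breast cancer cell line (triple-negative), and the lines differ in where the kinase AURKA (Aurora A) is directed in the cell.

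The 2 NLS-AURKA lines, clones c2 and c3, express AURKA cDNA with a nuclear localization signal and are labelled with guide sgAURKA1 and cDNA MUT1. The 2 NES-AURKA lines (clones c1 and c2) carry AURKA cDNA with a nuclear export signal, and the 2 WT-AURKA lines (clones c1 and c2) carry it with neither signal; all of these are labelled sgAURKA2 and MUT2. These 6 lines are single clones at passages 32 to 35. The 3 control lines, Empty, NES-Empty and NLS-Empty, hold no AURKA cDNA, are labelled with guide sgCon and stood at passages 19 to 20. All 9 lines carried the doxycycline-responsive pLUTZ mRFP vector and grew in MEM with 10% FBS under normoxia with doxycycline. Guide, passage and cloning therefore cannot be told apart from AURKA cDNA, nor guide and cDNA label from the nuclear localization signal. Each line has 3 libraries except WT-AURKA c2, which has 2.

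Lysyl oxidases are secreted copper-dependent amine oxidases. They turn lysine and hydroxylysine side chains of collagen and elastin into reactive aldehydes, which then condense into the crosslinks that make fibres insoluble and stiff. LOX and LOXL1 are made with a propeptide that BMP1-type proteases remove, whereas LOXL2, LOXL3 and LOXL4 carry scavenger receptor cysteine-rich domains. In breast cancer, LOX is best known as a gene raised by hypoxia and as a secreted enzyme that remodels matrix at metastatic sites. Only RNA was measured here, so enzyme amount, cleavage and activity were not assayed.

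The titles letter the libraries, and those lettered A to H (1 library from each line except WT-AURKA c2) differed as a set from the other 18 (I to Z). The nuclear RNA MALAT1 was at 174.6 to 561 RPKM in A to H and at 6.10 to 33.5 RPKM in I to Z. In NLS-AURKA libraries AURKA RNA read 56.5, 105 and 38.4 RPKM in c2 and 76.5, 38.8 and 40.3 RPKM in c3, with the A to H library first. AURKA lay between 15.5 and 37.0 RPKM in NES-AURKA, 12.7 and 84.1 RPKM in WT-AURKA and 34.0 and 68.9 RPKM in control libraries, and reads of the cDNA and of the cells' own gene cannot be told apart. Library D of WT-AURKA c1 read 84.1 RPKM of AURKA beside 14.1 and 12.8 RPKM in its partners, so it does not follow its own line; libraries A (36.7 RPKM, partners 15.5 and 21.5) and F (22.6 RPKM, partners 37.0 and 36.2) of the NES-AURKA clones also differ from theirs. In NLS-AURKA, library W of c2 (105 RPKM, partners 56.5 and 38.4) and library B of c3 (76.5 RPKM, partners 38.8 and 40.3) differ from their partners too. Several values below are also given without library D, A or F. Markers of the cell line were present: VIM, CD44, MSN and CAV1 summed to 434 to 1657 RPKM in AURKA lines and 422 to 677 RPKM in control lines, and ESR1 and PGR peaked at 0.0220 and 0.0120 RPKM. ERBB2, low but not silent in triple-negative lines, lay between 2.24 and 5.06 RPKM. Markers of fibroblasts, the usual source of LOX in tissue, summed to 0.141 to 0.753 RPKM over 6 genes in AURKA lines and 0.225 to 1.41 RPKM in control lines. Of these, DCN, PDGFRA, THY1 and FAP had a median of 0, PDGFRB a median of 0.109 RPKM (highest 0.719) and LUM a median of 0.220 RPKM (highest 1.34). LUM was lower in AURKA lines (0.175 ± 0.103 RPKM, SD over 6 line means) than in control lines (0.858 ± 0.287 RPKM, 3 line means), at a log2 difference of -0.64. It reached 1 RPKM in control libraries only, so it passed the filter for testing (1 RPKM or more in at least 2 libraries) through the group where it was higher. No p-value is therefore given for that difference. Between NLS-AURKA and NES-AURKA LUM differed by 0.01 (limma adjusted p = 0.979). Endothelial markers (5 genes) summed to 0.502 to 4.58 RPKM in AURKA lines and 0.521 to 0.941 RPKM in control lines, and leukocyte markers (5 genes) to 0.0976 to 1.14 RPKM in AURKA lines and 0.292 to 0.710 RPKM in control lines. Among them KDR, a VEGF receptor, was higher in NLS-AURKA (3.32 ± 0.126 RPKM) than in NES-AURKA (0.249 ± 0.0787 RPKM, SD over 2 line means each), by a log2 difference of 1.78. KDR averaged 0.616 RPKM in WT-AURKA and 0.547 RPKM in control lines. By group mean it reached the 1 RPKM of the filter only in NLS-AURKA, the group where it was higher, so no p-value is given for it. CDH5, VWF and TEK had medians of 0.00426, 0.0200 and 0.0132 RPKM. PECAM1, also endothelial, was at 0.205 ± 0.0571 RPKM in NLS-AURKA, 0.621 ± 0.254 RPKM in NES-AURKA and 0.703 ± 0.0232 RPKM in WT-AURKA lines (SD over 2 line means each), against 0.113 ± 0.0357 RPKM in control lines (3 line means). The part of these markers in the results below was not tested.

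Upstream sequence was available for 4 of the 5 members in the RefSeq promoter table (GRCh38.p14), a different build from the hg19 of the expression table. The 250 bases before the most upstream start are shown for LOX and LOXL1, which were higher in the NLS-AURKA than in the NES-AURKA and WT-AURKA clones, and for LOXL4, which moved between the NES-AURKA clones. They lie at chr5:122078260-122078509 on the minus strand (LOX), chr15:73926212-73926461 on the plus strand (LOXL1) and chr10:98268195-98268444 on the minus strand (LOXL4), and are written 5′ to 3′ along the gene. Capitals mark ACGTG on either strand, the core bound by hypoxia-inducible factors, and CACCTG on either strand, the E-box bound by SNAI and ZEB factors.
LOX: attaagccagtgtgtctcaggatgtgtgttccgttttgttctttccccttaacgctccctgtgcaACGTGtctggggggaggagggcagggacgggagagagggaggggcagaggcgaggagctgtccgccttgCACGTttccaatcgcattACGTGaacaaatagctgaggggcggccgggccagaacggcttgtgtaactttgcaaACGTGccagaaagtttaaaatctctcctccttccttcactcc
LOXL1: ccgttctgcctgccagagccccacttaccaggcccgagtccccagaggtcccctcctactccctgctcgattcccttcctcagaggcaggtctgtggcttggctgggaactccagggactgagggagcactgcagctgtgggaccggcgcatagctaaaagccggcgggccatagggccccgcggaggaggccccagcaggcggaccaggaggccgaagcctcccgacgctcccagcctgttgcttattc
LOXL4: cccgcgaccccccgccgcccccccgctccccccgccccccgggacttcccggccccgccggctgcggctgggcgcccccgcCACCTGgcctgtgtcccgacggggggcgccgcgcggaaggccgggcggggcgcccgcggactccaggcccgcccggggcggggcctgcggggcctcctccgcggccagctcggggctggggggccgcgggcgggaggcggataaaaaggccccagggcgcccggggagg
The LOX window held 4 ACGTG matches, beginning 185, 116, 98 and 42 bases before the start, the one at 116 on the opposite strand. Of 35116 RefSeq promoters searched over the same length, 18.5% held at least 1 ACGTG and 0.669% held 4 or more. LOXL1, LOXL3 and LOXL4 held none. The alternative hypoxia core GCGTG, present in 32.2% of promoters, was in none of the 4 windows. CACCTG, present in 17.5% of promoters, occurred once, in LOXL4, 169 bases before its start. The SMAD element CAGAC, present in 38% of promoters, occurred once in LOX (181 bases before the start, sharing 1 base with an ACGTG) and once in LOXL1 (161 bases). GC content was 55.2% in LOX, 66.8% in LOXL1, 64.4% in LOXL3 and 86.4% in LOXL4. A match of these letters is a description of the window and was not tested for binding.

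LOX, the founding member and a crosslinker of both collagen and elastin, was higher in each NLS-AURKA library than in any library of the other lines. It read 28.3, 48.9 and 29.8 RPKM in the NLS-AURKA c2 libraries and 38.9, 44.3 and 55.0 RPKM in those of NLS-AURKA c3, the A to H library first in each line. NES-AURKA c1 held 21.2, 7.45 and 8.14 RPKM and NES-AURKA c2 held 5.45, 15.5 and 11.8 RPKM. WT-AURKA c1 held 8.48, 12.3 and 11.4 RPKM, and WT-AURKA c2 held 12.2 and 12.7 RPKM. The NES-AURKA lines were the least even, and in both of them the A to H library lay away from its partners, on the high side in c1 and on the low side in c2. Control libraries sat close together, at 9.27, 12.9 and 11.9 RPKM in Empty, 10.3, 13.2 and 13.1 RPKM in NES-Empty and 8.34, 12.0 and 11.0 RPKM in NLS-Empty. The lowest of the 6 NLS-AURKA libraries was thus at 28.3 RPKM and the highest of the other 20 at 21.2 RPKM. Of all 12589 genes tested, 327 (2.60%) had the 6 NLS-AURKA libraries above the other 20 with no overlap. By line mean the order was NLS-AURKA c3 (46.1 RPKM), NLS-AURKA c2 (35.6), WT-AURKA c2 (12.4), NES-AURKA c1 (12.3), NES-Empty (12.2), Empty (11.4), NES-AURKA c2 (10.9), WT-AURKA c1 (10.7) and NLS-Empty (10.4). Among neighbours in that order, only NLS-AURKA c2 and WT-AURKA c2 had libraries that did not overlap. The share of all genes separated for that pair of lines alone was not counted.

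LOXL1, the family member most tied to elastic fibres, was expressed at a low level throughout. It read 3.15, 1.55 and 2.52 RPKM in NLS-AURKA c2 and 2.69, 2.14 and 2.27 RPKM in NLS-AURKA c3. NES-AURKA c1 held 2.14, 1.35 and 1.35 RPKM and NES-AURKA c2 1.09, 0.982 and 0.880 RPKM. The 5 WT-AURKA libraries lay between 0.984 and 1.45 RPKM and the 9 control libraries between 1.20 and 2.18 RPKM, with a median of 1.60 RPKM. The NLS-AURKA libraries were thus mostly the higher ones, but the groups overlapped, since libraries W of NLS-AURKA c2 and Y of NLS-AURKA c3 lay inside the control range. Both NLS-AURKA lines had the top means (2.40 and 2.37 RPKM), followed by NES-Empty (1.94), NES-AURKA c1 (1.61), NLS-Empty (1.52), WT-AURKA c2 (1.29), Empty (1.27), WT-AURKA c1 (1.23) and NES-AURKA c2 (0.985). All neighbours in this order overlapped.

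LOXL2, which crosslinks basement membrane collagen IV, was the most abundant member per length in most libraries and the most even. The 6 NLS-AURKA libraries ranged over 34.7 to 46.9 RPKM (median 38.3), the 6 NES-AURKA libraries over 23.8 to 38.4 RPKM (median 33.6), the 5 WT-AURKA libraries over 30.1 to 33.4 RPKM (median 31.6) and the 9 control libraries over 32.6 to 45.0 RPKM (median 36.9). Every NLS-AURKA library lay above every WT-AURKA library, while NLS-AURKA and control libraries overlapped. How many of all genes separate these 2 groups was not counted. The 2 highest NLS-AURKA values, 46.3 and 46.9 RPKM, both came from A to H libraries. By line mean the order was NLS-AURKA c3 (40.8 RPKM), NLS-AURKA c2 (39.1), NLS-Empty (38.0), Empty (37.7), NES-Empty (37.2), NES-AURKA c1 (35.9), WT-AURKA c1 (32.6), WT-AURKA c2 (30.5) and NES-AURKA c2 (30.1). Only the WT-AURKA neighbours did not overlap, and the share of all genes separated between them was not counted. Between these clones LOXL2 differed by -0.09 and was not called.

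LOXL3, a collagen and elastin crosslinker known from cartilage and palate development in mice, was close to the limit of the assay. It ranged over 0.366 to 0.750 RPKM in NLS-AURKA libraries (median 0.461), 0.0706 to 0.234 RPKM in NES-AURKA libraries (median 0.159), 0.104 to 0.199 RPKM in WT-AURKA libraries (median 0.145) and 0.125 to 0.476 RPKM in control libraries (median 0.352). No NLS-AURKA library overlapped a NES-AURKA or WT-AURKA library, but NLS-AURKA and control libraries overlapped. The share of all genes separated in this way was not counted, so the separation is given as description only. An estimate from transcript length puts LOXL3 at 3 to 32 reads per library (median 16), against 460 to 4460 for LOX (median 939), so its values carry the largest counting error of the family. By line mean the order was NLS-AURKA c2 (0.537 RPKM), NLS-AURKA c3 (0.456), Empty (0.379), NLS-Empty (0.323), NES-Empty (0.318), NES-AURKA c2 (0.162), NES-AURKA c1 (0.156), WT-AURKA c2 (0.155) and WT-AURKA c1 (0.144), and all neighbours overlapped. LOXL3 did not reach 1 RPKM in any library and fell outside the filter used for testing.

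LOXL4, a scavenger receptor domain member that is expressed in several carcinomas, differed most between clones of 1 construct. NLS-AURKA c2 held 17.8, 14.9 and 14.0 RPKM and NLS-AURKA c3 22.2, 16.0 and 14.5 RPKM. NES-AURKA c1 read 14.1, 35.8 and 35.2 RPKM, and NES-AURKA c2 read 5.60, 8.76 and 5.35 RPKM. Every library of the first of these clones was thus above every library of the second, a separation whose share over all genes was not counted. The WT-AURKA libraries were low, at 9.93, 10.1 and 8.72 RPKM in c1 and 6.97 and 10.5 RPKM in c2. Control libraries read 12.4, 16.5 and 17.4 RPKM in Empty, 19.0, 23.6 and 22.3 RPKM in NES-Empty and 18.4, 20.8 and 23.6 RPKM in NLS-Empty. The 2 NES-AURKA clones thus held both the highest and the lowest LOXL4 line means of the series, 28.3 and 6.57 RPKM. Between them came NES-Empty (21.6), NLS-Empty (20.9), NLS-AURKA c3 (17.6), NLS-AURKA c2 (15.6), Empty (15.4), WT-AURKA c1 (9.58) and WT-AURKA c2 (8.72), with no overlap between Empty and WT-AURKA c1. The share of all genes separated between Empty and WT-AURKA c1 was not counted either.

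**Figure D1:**
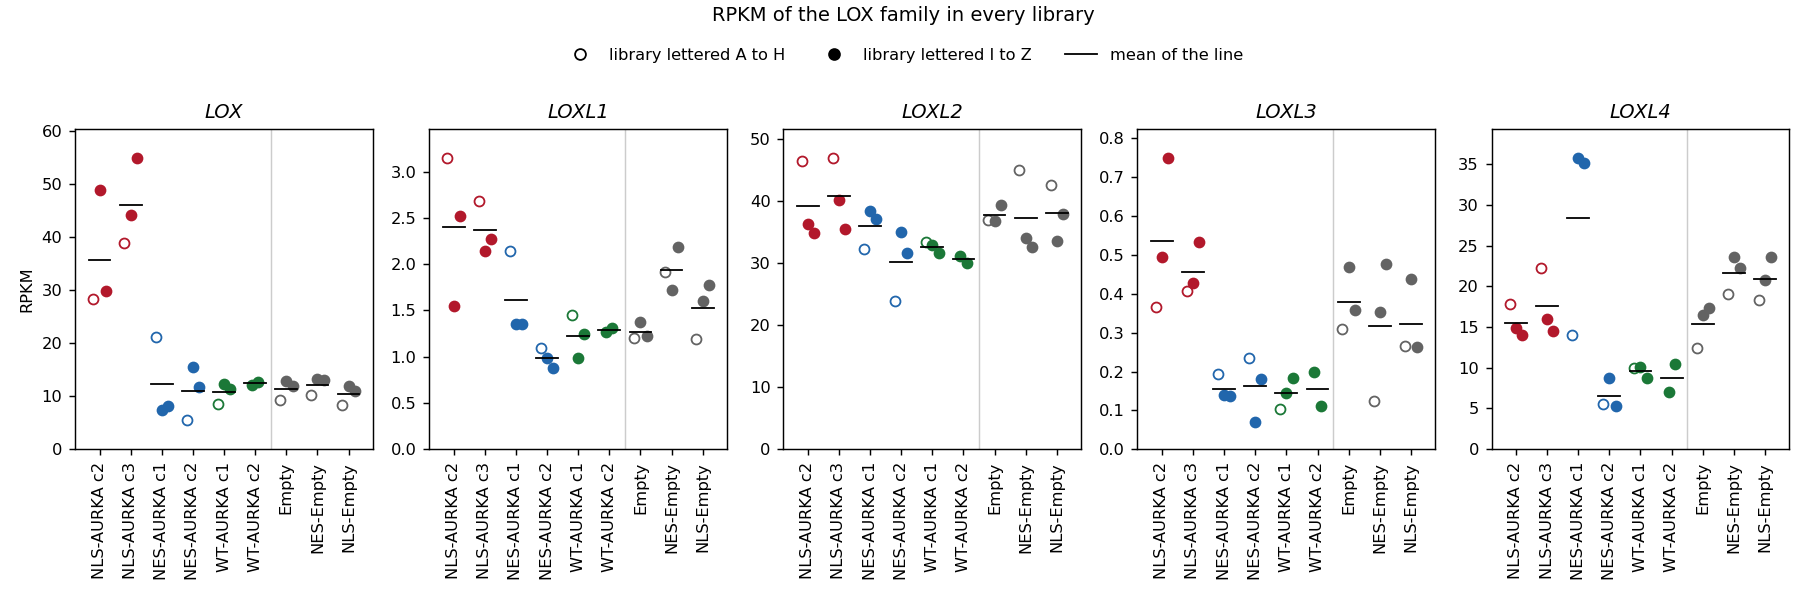
RPKM of the 5 LOX family genes (vertical axes, 1 panel each) in every library of the 9 lines (horizontal axes); open points are A to H libraries, filled points I to Z libraries and bars line means. LOX stands at 28.3 RPKM or more in all 6 NLS-AURKA libraries and at 21.2 RPKM or less in the other 20, while LOXL4 splits the NES-AURKA clones.

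The 5 members together summed to 93.3 ± 10.4 RPKM in NLS-AURKA c2 and 107 ± 4.08 RPKM in NLS-AURKA c3 (SD, n = 3 libraries each). The sum was 78.2 ± 7.40 RPKM in NES-AURKA c1 and 48.7 ± 12.1 RPKM in NES-AURKA c2 (n = 3 each). It was 54.3 ± 1.77 RPKM in WT-AURKA c1 (n = 3) and 53.2 ± 2.12 RPKM in WT-AURKA c2 (n = 2). Over the 9 control libraries the sum lay between 60.1 and 76.3 RPKM, below every NLS-AURKA library, whose lowest was 81.8 RPKM. Libraries S and T of NES-AURKA c1, at 83.1 and 81.9 RPKM, overlapped the NLS-AURKA libraries. How often sums of other genes separate NLS-AURKA from control libraries was not counted. LOX made up 29.5 to 51.0% of the summed RPKM in NLS-AURKA libraries (median 39.7%), 8.96 to 30.4% in NES-AURKA libraries (median 19.4%), 15.9 to 23.6% in WT-AURKA libraries (median 21.9%) and 11.8 to 18.9% in control libraries (median 17.0%). LOXL2 made up a median of 40.6% in NLS-AURKA libraries, 52.1% in NES-AURKA, 59.5% in WT-AURKA and 54.0% in control libraries. By median share, LOX stood close to LOXL2 in the NLS-AURKA libraries and below it in the other groups. These shares are of RNA per length and not of enzyme.

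**Figure D2:**
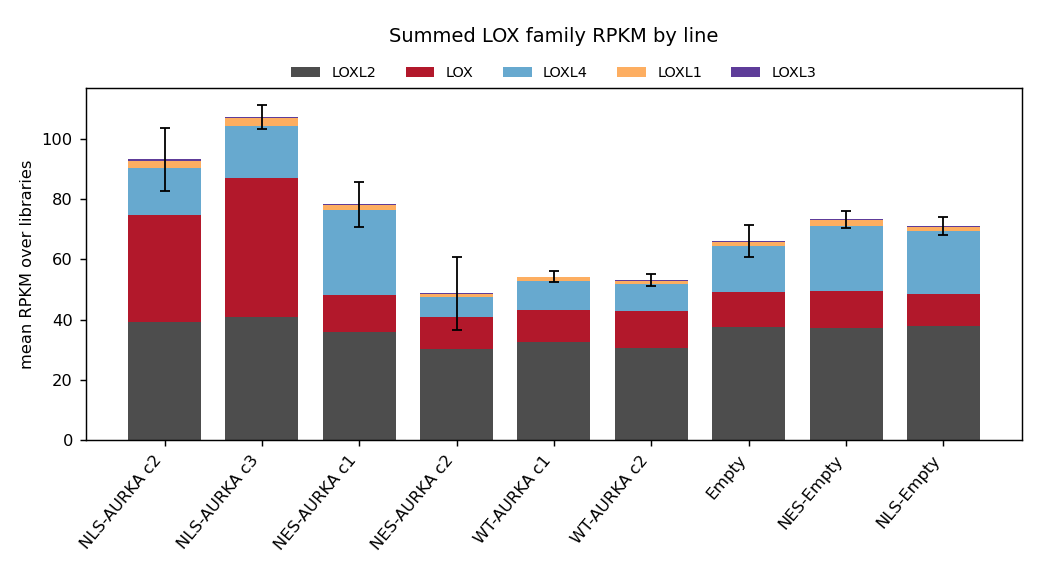
Mean RPKM over the libraries of each line (vertical axis) for the 5 members stacked, with bars of 1 SD of the summed value; the 9 lines run along the horizontal axis. The NLS-AURKA clones reach 93.3 and 107 RPKM, with LOX segments of 35.6 and 46.1 RPKM; the LOXL2 and LOXL4 segments are lowest in the WT-AURKA clones and NES-AURKA c2.

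The compartment of AURKA was compared first between the NLS-AURKA and NES-AURKA clones, with 1 value per line. LOX was higher in NLS-AURKA, at 40.8 ± 7.36 RPKM against 11.6 ± 0.955 RPKM in NES-AURKA (SD over 2 line means each), a log2 difference of 1.82 (SE 0.14, limma adjusted p = 6.74e-05). The small NES-AURKA SD hides clone differences that run in opposite directions in the letter sets. In the I to Z libraries c1 averaged 7.79 RPKM and c2 13.6 RPKM of LOX. The A to H library read 21.2 RPKM in c1 and 5.45 RPKM in c2. LOXL1 was higher as well, at 2.39 ± 0.0269 RPKM in NLS-AURKA and 1.30 ± 0.444 RPKM in NES-AURKA, a log2 difference of 0.56 (SE 0.15, limma adjusted p = 0.0182). LOXL2 (0.27, SE 0.10, limma adjusted p = 0.0702) and LOXL4 (0.29, SE 0.47, limma adjusted p = 0.669) did not pass. The LOXL2 value moved between 0.05 in the I to Z libraries alone and 0.73 in the A to H libraries alone, and it passed in 3 of 18 alternative fits: with the line as random block and a letter-set term (0.27, adjusted p = 0.0389, limma), without library D (0.27, adjusted p = 0.0487, limma) and without NES-AURKA c1 (0.40, adjusted p = 0.00632, limma). Of the 4 members tested 2 passed, and 33.2% of all 12589 genes passed in this comparison, 2408 higher and 1772 lower in NLS-AURKA. The LOX difference was 1.98 (adjusted p = 0.000314, limma) in the I to Z libraries alone and 1.51 (adjusted p = 0.126, limma) in the A to H libraries alone, where each line has 1 library. It was 1.63 without library A and 2.04 without library F, and the LOXL1 difference was 0.58 without A and 0.63 without F. The LOXL4 value was 0.25 without library A and 0.08 without library F. It depended on which NES-AURKA clone was kept: it was 1.23 (adjusted p = 0.00112, limma) without NES-AURKA c1 and -0.65 (adjusted p = 0.0197, limma) without NES-AURKA c2.

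Against WT-AURKA, whose clones averaged 11.6 ± 1.20 RPKM of LOX (SD, 2 line means), LOX in the NLS-AURKA clones was higher by a log2 difference of 1.70 (SE 0.14, limma adjusted p = 8.71e-05), and by 1.63 without library D. LOXL1 was higher by 0.57 (SE 0.15, limma adjusted p = 0.0161), with 1.26 ± 0.0410 RPKM in WT-AURKA, and by 0.61 without library D. LOXL2 was higher by 0.32 (SE 0.10, limma adjusted p = 0.0378), at 40.0 ± 1.20 RPKM in NLS-AURKA and 31.6 ± 1.45 RPKM in WT-AURKA, but this call was lost in 11 of 18 alternative fits, the I to Z libraries alone among them (0.22, adjusted p = 0.116, limma). LOXL4 differed by 0.79 (SE 0.47, limma adjusted p = 0.213), at 16.6 ± 1.43 RPKM in NLS-AURKA and 9.15 ± 0.605 RPKM in WT-AURKA. Its SE came from a spread shared by all groups, and the NES-AURKA clones widened it: without either one the same 0.79 passed (adjusted p = 0.00249 without c1 and 0.00250 without c2, limma). Of the 4 members tested 3 passed, where 36.1% of all genes did. The NLS-AURKA clones serve in both of these comparisons.

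LOXL3 was outside the filter, so its test comes from a fit of all 33562 rows. There it was higher in NLS-AURKA than in NES-AURKA by 0.37 (SE 0.05, limma adjusted p = 0.00639), at 0.497 ± 0.0573 RPKM in NLS-AURKA against 0.159 ± 0.00395 RPKM in NES-AURKA (SD over 2 line means each). Against WT-AURKA, at 0.150 ± 0.00792 RPKM, the difference was 0.38 (limma adjusted p = 0.00543). Over NLS-Empty it was 0.21 (limma adjusted p = 0.284) in NLS-AURKA c2 and 0.14 (limma adjusted p = 0.623) in NLS-AURKA c3. In that fit 11.6% of all rows passed between NLS-AURKA and NES-AURKA and 12.2% between NLS-AURKA and WT-AURKA. On the log2(RPKM + 1) scale a change between values this low is strongly understated. The NLS-AURKA values of LOXL3 lay above the NES-AURKA and WT-AURKA clones but overlapped those of the control lines.

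Between NES-AURKA and WT-AURKA clones no member passed the test with all lines in the fit. The log2 difference of NES-AURKA over WT-AURKA was -0.12 for LOX (limma adjusted p = 0.656), 0.01 for LOXL1 (0.981), 0.05 for LOXL2 (0.824) and 0.50 for LOXL4 (0.562). With an SE of 0.14 for LOX and 0.47 for LOXL4, the interval around the LOXL4 value is wide. LOXL4 passed at 1.43 (adjusted p = 0.00267, limma) when NES-AURKA c2 was left out, and was at -0.44 without NES-AURKA c1. Of all genes, 4.87% passed here.

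Setting all 6 AURKA lines against the 3 control lines asks about AURKA cDNA with its guide, passage and cloning. LOX averaged 21.3 ± 15.5 RPKM over the AURKA lines and 11.3 ± 0.864 RPKM over the control lines (SD, n = 6 and 3 line means), a log2 difference of 0.56 (SE 0.46, limma adjusted p = 0.428). The large SD in the AURKA lines came with the 2 NLS-AURKA clones, since the other 4 lines averaged between 10.7 and 12.4 RPKM. LOXL4 averaged 14.4 ± 8.03 RPKM in AURKA lines and 19.3 ± 3.39 RPKM in control lines, a difference of -0.56 (SE 0.36, limma adjusted p = 0.302). LOXL1 (0.01, limma adjusted p = 0.973) and LOXL2 (-0.12, limma adjusted p = 0.512) were also short of the threshold. None of 4 members passed, where 19.2% of all genes did.

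**Figure D3:**
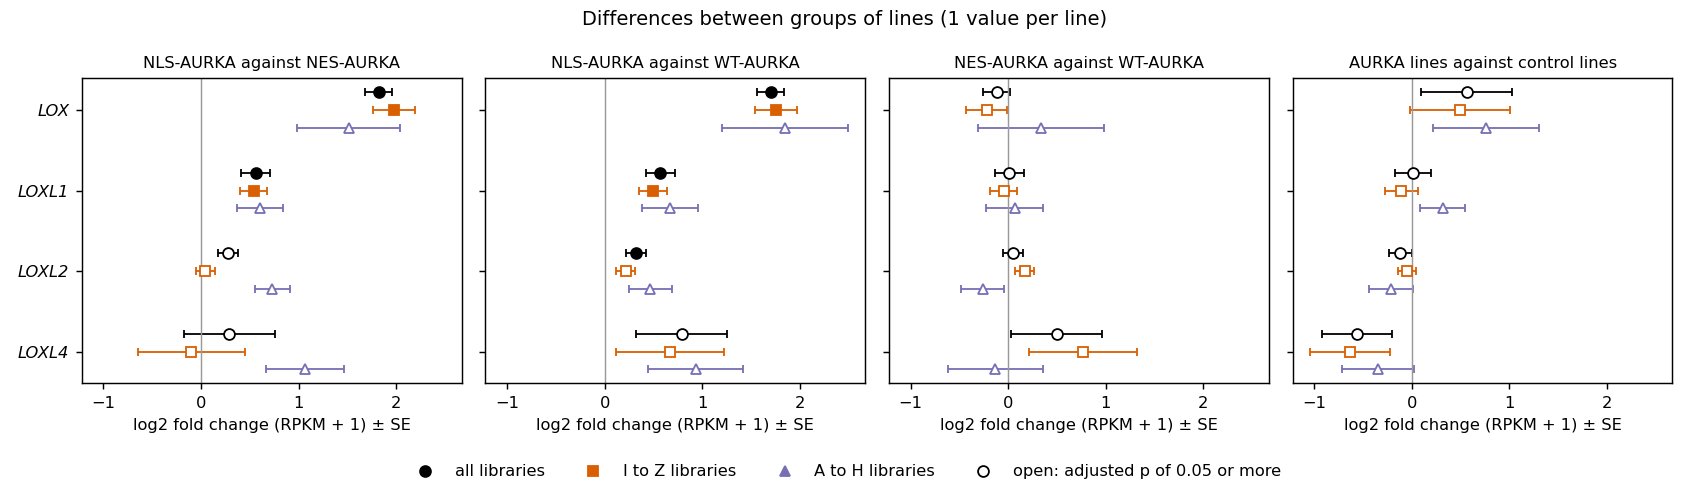
Log2 fold changes with SE (horizontal axes) of the 4 members tested (rows) in the 4 comparisons of groups of lines; circles use all libraries, squares the I to Z and triangles the A to H libraries, and filled symbols have an adjusted p under 0.05. LOX lies at 1.82 and 1.70 in the NLS-AURKA comparisons, and LOXL4 changes sign between letter sets for NLS-AURKA against NES-AURKA.

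Each clone was next set against the control line whose vector has the same signal, over libraries, and here the call further required a log2 difference of 1 or more in size. The labels do not say that libraries of a line were separate cultures, so these p-values measure a spread that may be technical. LOX was higher in NLS-AURKA c2 by 1.65 (SE 0.33, limma adjusted p = 0.00136) and in NLS-AURKA c3 by 2.04 (SE 0.33, limma adjusted p = 0.000194), both over NLS-Empty. These clones had 5.75% and 5.13% of all genes called. In the I to Z libraries alone the same differences were 1.65 and 2.01. With 1 library left out at a time they ran from 1.41 to 1.79 in c2 and from 1.90 to 2.15 in c3. The LOX difference from the matched control was -0.13 in NES-AURKA c1, -0.24 in NES-AURKA c2, -0.08 in WT-AURKA c1 and 0.13 in WT-AURKA c2, none of them called. Library F decided the NES-AURKA c1 value, which was -0.58 without it. Without library A the NES-AURKA c2 value turned to 0.15, and without library D the WT-AURKA c1 value turned to 0.07, neither called.

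LOXL4 was lower in NES-AURKA c2 than in NES-Empty, at a log2 difference of -1.60 (SE 0.27, limma adjusted p = 0.000501), in a comparison with 2.83% of genes called. In NES-AURKA c1, with 4.43% of genes called, LOXL4 differed by 0.27 (adjusted p = 0.612, limma), and by 0.69 without library F. The LOXL4 difference was -0.41 in NLS-AURKA c2, -0.25 in NLS-AURKA c3, -0.62 in WT-AURKA c1 and -0.77 in WT-AURKA c2, none called; the WT-AURKA clones, which share the control Empty, had 3.53% (c1) and 3.19% (c2) of genes called. LOXL1 was 0.41 over NLS-Empty in NLS-AURKA c2 (adjusted p = 0.0734, limma) and 0.42 in NLS-AURKA c3 (adjusted p = 0.0751, limma), neither called. LOXL1 in NES-AURKA c2 was at -0.56 (adjusted p = 0.0226, limma), under the fold limit. No clone had LOXL2 called. In all, 3 of 24 member-by-clone comparisons were called, and the number was 3 in each of the 31 alternative fits.

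**Figure D4:**
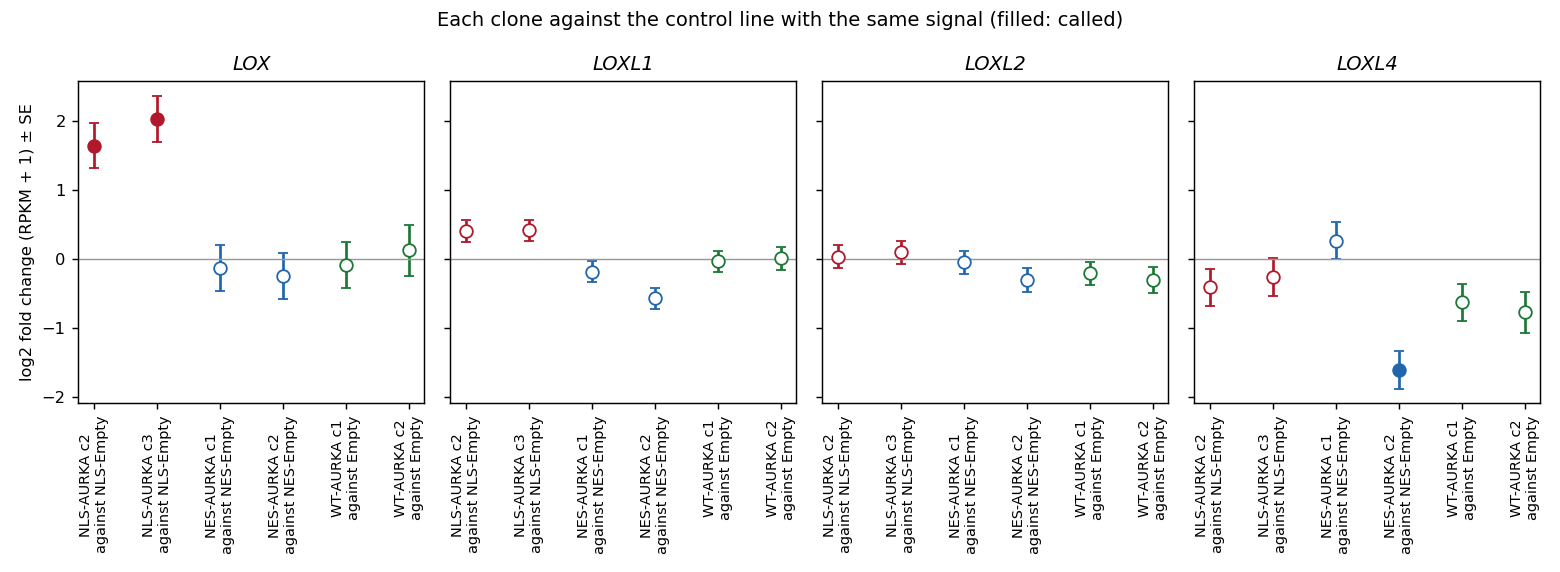
Log2 fold change with SE (vertical axis) of the 4 members tested in each AURKA clone over the control line with the same signal (horizontal axes); filled points were called. The filled points are LOX at 1.65 and 2.04 in the NLS-AURKA clones and LOXL4 at -1.60 in NES-AURKA c2.

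Clones of 1 construct were then compared with each other, again over libraries, so these p-values too measure a spread that may be technical. LOXL4 was lower in NES-AURKA c2 than in NES-AURKA c1, at a log2 difference of -1.87 (SE 0.27, limma adjusted p = 0.000331), and of -2.30 without library F. It was the single call among 12 such comparisons, in a pair with 1.08% of genes called. LOX was 0.39 higher in NLS-AURKA c3 than in NLS-AURKA c2 (SE 0.33, limma adjusted p = 1), a difference within the spread of their libraries. Between the NLS-AURKA clones and between the WT-AURKA clones limma called 0% of genes, with 114 and 57 genes at an unadjusted p under 0.05.

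Whether the LOX difference goes beyond the vectors' own signals was asked by taking the change of NLS-AURKA from NLS-Empty minus the change of NES-AURKA from NES-Empty. For LOX this difference of changes was 2.03 log2 units (SE 0.41, limma adjusted p = 0.00357). It was 2.15 (adjusted p = 1.77e-05, limma) in the I to Z libraries alone, 1.84 without library A and 2.25 without library F. LOXL1 had 0.79 (SE 0.19, limma adjusted p = 0.0130), under the fold limit of 1, but was called at 1.19 (adjusted p = 0.0122, limma) with a pseudocount of 0.1 in place of 1. LOXL2 (0.24) and LOXL4 (0.34) were not called. LOXL3, without the filter, had 0.35 (limma adjusted p = 0.159). Of the 4 members 1 was called, where 3.03% of all genes were. By line mean the 3 control lines lay between 10.4 and 12.2 RPKM of LOX, and their libraries overlapped.

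Several members share genomic sequence with another gene, and the strand setting of the counting is not given in the sources used here, so reads of overlapping genes cannot be told apart. SRFBP1, on the strand opposite LOX, ranged over 5.12 to 11.7 RPKM and differed between NLS-AURKA and NES-AURKA by 0.24 (adjusted p = 0.150, limma), far less than LOX. Against WT-AURKA it was higher in NLS-AURKA by 0.62 (adjusted p = 0.00353, limma). DOK1 and HTRA2 lie opposite LOXL3, and both were higher in NLS-AURKA than in NES-AURKA, by 0.56 (adjusted p = 0.0159, limma) and 0.74 (adjusted p = 0.000423, limma). They ranged over 1.77 to 7.67 RPKM and 3.77 to 17.7 RPKM, well above LOXL3, and their part in the LOXL3 values was not tested. ENTPD4 overlaps LOXL2 and differed by 0.15 (adjusted p = 0.309, limma).

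The other genes of collagen crosslinking were described by role, with log2 differences of NLS-AURKA over NES-AURKA unless another comparison is named. Of 13 collagen hydroxylases and glycosyltransferases 11 were tested, with 1 higher and 3 lower, and the median was -0.20 where the median of all genes was 0.05. PLOD3, a lysyl hydroxylase that also glycosylates hydroxylysine, was at 8.72 ± 0.752 RPKM in NLS-AURKA and 15.7 ± 0.254 RPKM in NES-AURKA (-0.78, adjusted p = 0.000424, limma). Control lines were at 8.58 ± 0.451 RPKM of PLOD3, near the NLS-AURKA level, and WT-AURKA lines at 17.2 ± 0.617 RPKM. P4HA2, a prolyl hydroxylase catalytic subunit, was lower, at -0.52 (adjusted p = 0.00503, limma), and P4HB, its shared partner subunit, at -0.36 (adjusted p = 0.0406, limma). By group mean P4HA2 was at 4.31 RPKM in NLS-AURKA and 4.35 RPKM in WT-AURKA. NES-AURKA lines averaged 6.50 RPKM and control lines 6.65 RPKM of P4HA2. P3H2, a prolyl 3-hydroxylase, was lower in AURKA lines than in control lines, at -0.64 (adjusted p = 0.0177, limma). PLOD1 and PLOD2, the other lysyl hydroxylases, were at -0.20 and 0.02 and did not pass.

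Of 9 folding and export genes 8 were tested, 0 higher and 2 lower. FKBP14, an endoplasmic reticulum prolyl isomerase, was lower, at -0.40 (adjusted p = 0.0305, limma), and MIA2, which takes part in collagen export from the endoplasmic reticulum, at -0.33 (adjusted p = 0.0337, limma). FKBP14 averaged 4.63 RPKM in NLS-AURKA, 6.11 RPKM in NES-AURKA and 4.20 RPKM in control lines. Against control lines, AURKA lines had SEC24D, a coat protein of secretory vesicles, higher by 0.75 (adjusted p = 0.00721, limma) and MIA2 lower, at -0.68 (adjusted p = 0.00706, limma). BMP1, the protease that trims the LOX propeptide and procollagens, was lower in NLS-AURKA, at 1.47 ± 0.00484 RPKM against 2.56 ± 0.500 RPKM in NES-AURKA (-0.52, adjusted p = 0.0140, limma). It was 1 of only 2 propeptide genes of 8 that were expressed enough to test.

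Substrates were scarce: 3 of the 13 collagen and elastin genes in the table, COL4A1, COL4A2 and COL5A1, were tested. None passed between NLS-AURKA and NES-AURKA, at -0.41, -0.29 and -0.69. COL4A1, a basement membrane chain, was lower in AURKA lines (5.20 ± 1.43 RPKM) than in control lines (10.7 ± 2.71 RPKM), at -0.79 (adjusted p = 0.0239, limma). Of 16 elastic fibre and LOX-binding matrix genes 9 were tested, 0 higher and 2 lower in NLS-AURKA. These were the latent TGF-beta binding proteins LTBP1 (4.68 ± 0.141 RPKM in NLS-AURKA and 12.2 ± 1.48 RPKM in NES-AURKA, -1.22, adjusted p = 0.000682, limma) and LTBP3 (-0.66, adjusted p = 0.00729, limma). FN1, a matrix glycoprotein that binds LOX, was higher in AURKA lines (11.6 ± 9.07 RPKM) than in control lines (1.44 ± 0.163 RPKM), by 1.79 (adjusted p = 0.00250, limma). Of other crosslinkers, TGM2, a transglutaminase, was lower in NLS-AURKA, at 15.1 ± 0.390 RPKM against 36.8 ± 2.73 RPKM in NES-AURKA (-1.26, adjusted p = 0.000290, limma). Control lines were at 16.7 ± 2.64 RPKM of TGM2, near the NLS-AURKA level, and WT-AURKA lines at 39.0 ± 2.69 RPKM. PXDN, the peroxidase that forms sulfilimine bonds in collagen IV, was higher by 0.53 (adjusted p = 0.00941, limma).

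Of 9 copper handling genes 8 were tested, 2 higher and 1 lower. MEMO1, a copper-binding protein, was higher by 0.57 (adjusted p = 0.00225, limma) and COX17, a mitochondrial copper chaperone, lower, at -0.61 (adjusted p = 0.00283, limma). ATP7A, the pump that loads copper onto lysyl oxidases in the secretory pathway, differed by 0.23 and did not pass. Against control lines, AURKA lines had ATOX1, the chaperone that hands copper to ATP7A, higher by 0.46 (adjusted p = 0.0156, limma) and SLC31A2, a copper transporter, higher by 0.76 (adjusted p = 0.00304, limma). The other copper amine oxidases gave 1 testable gene of 3, AOC2, which did not pass.

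Of 13 transcription factors and TGF-beta ligands linked to LOX genes 10 were tested, 3 higher and 3 lower in NLS-AURKA. SMAD4, the shared partner of the SMAD factors, was higher by 0.88 (adjusted p = 0.000985, limma), and ARNT, the partner of the hypoxia-inducible factors, by 0.73 (adjusted p = 0.000568, limma). ARNT averaged 6.05 RPKM in NLS-AURKA, 3.25 RPKM in NES-AURKA, 4.70 RPKM in WT-AURKA and 4.50 RPKM in control lines. Against WT-AURKA, ARNT was higher in NLS-AURKA by 0.29 (adjusted p = 0.0345, limma) and lower in NES-AURKA, at -0.44 (adjusted p = 0.0322, limma). HIF1A was at 57.1 ± 2.20 RPKM in NLS-AURKA and 81.3 ± 3.03 RPKM in NES-AURKA (-0.53, adjusted p = 0.00683, limma). EPAS1, which encodes HIF-2 alpha, was lower, at -0.65 (adjusted p = 0.00468, limma). Both were also lower in AURKA lines than in control lines, HIF1A at -0.70 (adjusted p = 0.0126, limma) and EPAS1 at -1.12 (adjusted p = 0.0163, limma). RNA of both oxygen-sensing subunits was lower in the clones where LOX was higher, and protein of these factors was not measured. All list counts stand beside the 33.2% of genes called in the same comparison.

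**Figure D5:**
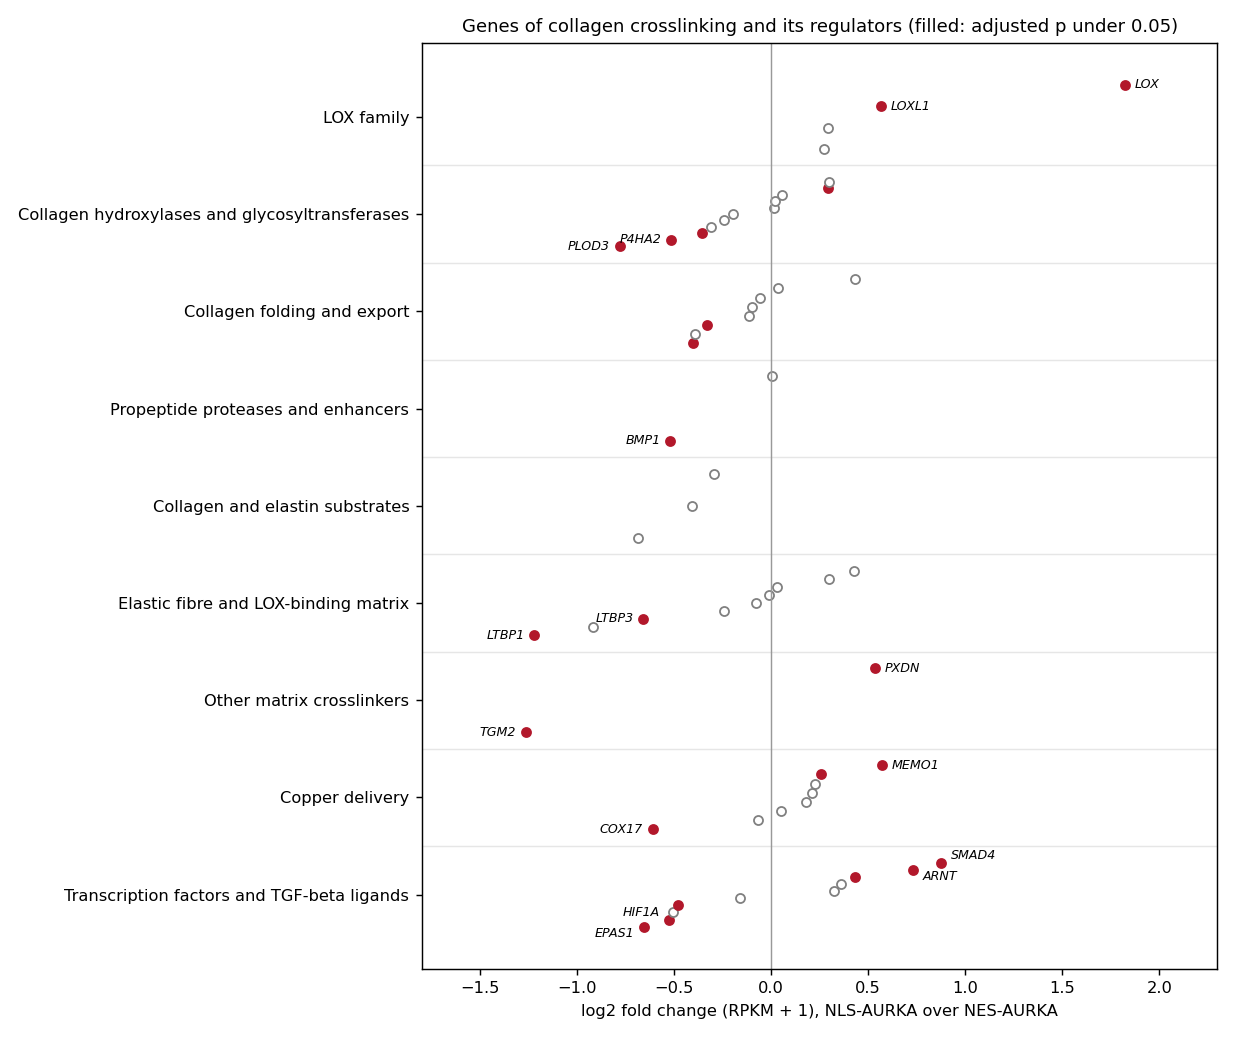
Log2 fold change of NLS-AURKA over NES-AURKA (horizontal axis) for each tested gene of the lists (rows); filled points have an adjusted p under 0.05 and those beyond 0.5 are named. LOX at 1.82 is the highest point drawn and TGM2 at -1.26 the lowest.

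The genes whose line means were most like each member's were found by Pearson's r over the 9 lines, which share libraries and their 2 letter sets. For LOX they were CHST10 (r = 0.988), SGK3 (0.988) and NBAS (0.988), and over the I to Z libraries of the same lines r was 0.947, 0.992 and 0.951. For LOXL1 they were ZNF266 (0.973), CMBL (0.963) and PPM1M (0.961), with 0.837, 0.931 and 0.836 over the I to Z libraries, and for LOXL3 CXCR4 (0.991), GCN1 (0.985) and SLC7A2 (0.981), with 0.973, 0.970 and 0.980. For LOXL4 they were LY6E (0.984), STT3B (0.964) and TM9SF4 (0.945), with 0.914, 0.785 and 0.761. LOXL2 was closest to CUL7 (0.982), ZNF391 (0.971) and PRR3 (0.971), with 0.719, 0.655 and 0.655. Among members, LOX and LOXL1 had r of 0.830 over all libraries and 0.674 in the I to Z set, and LOX and LOXL4 had 0.18 and -0.18. The 9 points fall into 4 groups of lines, so they are not 9 separate conditions.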

How the data were processed

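The authors deposited 1 table of RPKM values for 33562 gene symbols and 26 libraries. Reads were handled with HISAT2, SAMtools and Partek on hg19, per the submitters' processing notes; no version, annotation or strand setting is given there. Members, gene lists and alternatives were chosen with earlier results of these data known. The labels gave the groups. Since the table holds RPKM and not counts, limma 3.58.1 (R 4.3.3) with a mean-variance trend was run on log2(RPKM + 1), which understates changes of low genes, for genes at 1 RPKM or more in at least 2 libraries (12589 genes, 4 of 5 members). Groups of lines were tested on 1 mean per line, and single lines in a fit of 26 libraries, where calls further required a log2 difference of 1 or more in size. P-values were Benjamini-Hochberg adjusted over all genes tested, with a threshold of 0.05. Fits were tested on simulated data. Alternatives were a pseudocount of 0.1, no filter, either letter set alone, a letter-set term, the line as random block, rescaling, and leaving out lines or libraries. The values give no depth; from 2517 single-transcript genes it was estimated at 12100000 to 20100000 reads per library. Sequences are from RefSeq (GRCh38.p14). Named genes are the members, up to 4 called genes per list with the largest change, the 3 genes most like each member and overlapping genes; PLOD1, PLOD2, ATP7A, AOC2, COL4A2, COL5A1 and MALAT1 were chosen after their values were seen. Transcript lengths come from GENCODE 29. The overlapping genes were entered by name, and no search over coordinates was run for others.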

Additional observations from a re-analysis of the deposited data

Results flagged for a closer look

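The change of LOX in the NLS-AURKA clones over NLS-Empty differed from its change in the NES-AURKA clones over NES-Empty by 2.03 on the log2(RPKM + 1) scale (SE 0.41, limma adjusted p = 0.00357 over all genes tested). A test of the difference itself flagged it, over libraries, so the p-value measures the spread between libraries of a line and not between lines. LOX was higher than the matched control in 6 of 6 NLS-AURKA libraries. These libraries come from 2 clones and are the values that raised the flag, so the count adds no separate support. The guide and cDNA label differ between these constructs too and cannot be told apart from the signal. For the RPKM of the 5 members, no value stood far from the rest in any of the 25 groups of libraries or line means checked. A single line holds too few libraries for this check. Library F lay apart from its partners in NES-AURKA c1, at 21.2 RPKM of LOX beside 7.45 and 8.14 RPKM. AURKA itself was not among the values checked, and its level in library D of WT-AURKA c1 was 84.1 RPKM, as given above.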

How the results depend on the processing

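The LOX differences of NLS-AURKA over NES-AURKA and over WT-AURKA kept their direction in all 18 alternatives each (1.51 to 2.04 and 1.51 to 1.90) and lost the call only in the A to H libraries alone (adjusted p 0.126 and 0.159, limma), which leave 1 library a line. The counts of clone calls (3) and clone-pair calls (1) were the same in all 31 alternatives. LOXL1 lost the calls in 5 and 6 of 18 alternatives (0.37 to 0.85 and 0.50 to 0.85), and LOXL2 over WT-AURKA in 11 of 18. No cause of these changes was tested.

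Among differences that were not called with all libraries, directions turned as follows. In the I to Z libraries alone, LOXL1 in AURKA over control lines was -0.108, LOXL4 in NLS-AURKA over NES-AURKA -0.0979, LOXL1 in NES-AURKA over WT-AURKA -0.0445, LOXL1 in WT-AURKA c2 over Empty -0.00668, LOXL2 in NES-AURKA c1 over NES-Empty 0.174, LOX in NES-AURKA c2 over NES-Empty 0.0383, LOXL2 in NLS-AURKA c2 over NLS-Empty -0.00454, LOX in NES-AURKA c2 over c1 0.724 (adjusted p = 0.0118, limma, under the fold limit), and the difference of changes -0.0476 for LOXL2 and -0.0520 for LOXL4. In the A to H libraries alone NES-AURKA over WT-AURKA gave 0.335 for LOX, -0.260 for LOXL2 and -0.133 for LOXL4. A pseudocount of 0.1 gave LOXL1 -0.00281 in AURKA over control lines and -0.00257 in NES-AURKA over WT-AURKA, where the line as random block gave -0.00471.

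Leaving out 1 line or library gave the following ranges where a sign turned. AURKA over control lines gave LOXL1 -0.0758 to 0.111. NLS-AURKA over NES-AURKA gave LOXL4 -0.646 to 1.23. NES-AURKA over WT-AURKA gave LOX -0.342 to 0.0756, LOXL1 -0.184 to 0.201, LOXL2 -0.0818 to 0.176 and LOXL4 -0.437 to 1.43. WT-AURKA c1 over Empty gave LOX -0.203 to 0.0709 and LOXL1 -0.101 to 0.0514, and WT-AURKA c2 over Empty gave LOXL1 -0.00668 to 0.0472. NES-AURKA c1 over NES-Empty gave LOX -0.576 to 0.120 and LOXL2 -0.127 to 0.0998, and NES-AURKA c2 over NES-Empty gave LOX -0.528 to 0.148. NLS-AURKA over NLS-Empty gave LOXL2 -0.0868 to 0.120 in c2 and -0.00256 to 0.195 in c3. WT-AURKA c2 over c1 gave LOXL1 -0.0384 to 0.114 and LOXL4 -0.405 to 0.119, NES-AURKA c2 over c1 gave LOX -0.397 to 0.334, and NLS-AURKA c3 over c2 gave LOXL1 -0.186 to 0.166, LOXL2 -0.0405 to 0.186 and LOXL4 -0.0207 to 0.269.

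Over all genes, the number called in the A to H libraries alone was 1455 for AURKA over control lines, 986 for NLS-AURKA over NES-AURKA, 387 for NLS-AURKA over WT-AURKA and 0 for NES-AURKA over WT-AURKA (limma, with 1360 genes at an unadjusted p under 0.05 and the lone WT-AURKA line assumed to vary like the others). With 1 line or library left out these counts were 915 to 2669, 2250 to 5473, 2509 to 6267 and 20 (without WT-AURKA c2) to 2705 (without library D). The line as random block gave 1276 for NES-AURKA over WT-AURKA, and the difference of changes had 610 genes with a pseudocount of 0.1 and 808 in the I to Z libraries. No paired analysis was possible because the labels give no replicate number that libraries of different lines share. A letter-set term was fitted instead, with the line as random block, and gave LOX 1.82 for NLS-AURKA over NES-AURKA (adjusted p = 2.26e-07, limma). That fit is over libraries and shares a single correlation within lines over all genes. Its p-value therefore does not measure the spread of LOX between clones. Each construct has 2 clones, depth is an estimate, and LOXL3 rests on a median of 16 reads a library.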
